A study of Mus musculus with 8 samples.

Results

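Mitochondrial ribosomal protein genes were examined in cardiac fibroblasts with and without Lmna, the gene of the nuclear lamins A and C. The genes were taken as every listed symbol that starts with Mrpl or Mrps followed by a digit, which gave 77 of 18957 listed genes, 48 with an Mrpl symbol and 29 with an Mrps symbol. They lie on 17 chromosomes. The cells were living, PDGFRA-positive and lineage-negative cells sorted from the ventricles of C57BL/6 mixed mice aged 3 to 4 weeks, with 4 WT and 4 Pdgfra-Cre:LmnaF/F libraries. The Pdgfra-Cre:LmnaF/F mice carried a Cre transgene under control of the Pdgfra locus and 2 floxed alleles of Lmna, in which exon 2 is removed, while the WT littermates had neither, so the Cre transgene and the loss of Lmna cannot be told apart in this comparison. The Pdgfra locus also becomes active in some cardiac myocytes during development, and the deletion was therefore not restricted to fibroblasts in these hearts.

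The mitochondrial ribosome translates the few mRNAs of mitochondrial DNA, all of which encode subunits of the respiratory chain and the ATP synthase. Its RNAs are made inside the organelle, whereas all of its proteins are encoded in the nucleus, made on cytosolic ribosomes and imported. The small subunit holds the mRNA and the decoding site, and the large subunit forms the peptide bond and is bound to the inner membrane beside the exit of the nascent chain. Part of the proteins have a counterpart in the bacterial ribosome and the others were added in the mitochondrial lineage. Recessive mutations in several of the genes cause respiratory chain deficiency in humans, in some families with cardiomyopathy, which is why the set is of interest in a heart. Symbols do not always name the subunit, since the products of Mrps30 and Mrps18a are parts of the large subunit, and the product of Mrps36 is now regarded as a component of the 2-oxoglutarate dehydrogenase complex.

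Total counts lay between 2080555 in WT replicate 2 and 12502949 in Pdgfra-Cre:LmnaF/F replicate 4. The median count of a mitochondrial ribosomal protein gene was 41 in WT replicate 2 and between 140 and 308 in the other libraries. Values are given as CPM, counts scaled to a common library size with TMM factors. Lmna itself was at 331.3, 273.7, 482.9 and 373.9 CPM in the WT libraries and at 126.2, 97.4, 130.0 and 90.4 CPM in the Pdgfra-Cre:LmnaF/F libraries, so that no library went against its label. The summed level of 8 fibroblast markers was 51020 ± 3275 CPM in WT and 47830 ± 7161 CPM in Pdgfra-Cre:LmnaF/F cells (SD, n = 4 each). The summed level of 12 cardiac myocyte markers was 5986 CPM in Pdgfra-Cre:LmnaF/F replicate 4 and between 347.4 and 1112 CPM in the other 7 libraries, none of the markers but Nppa being at 0 in any library. The 6 endothelial markers summed to 533.9 to 729.1 CPM in WT and 408.6 to 514.3 CPM in Pdgfra-Cre:LmnaF/F libraries, and the 7 hematopoietic markers to 390.4 CPM in Pdgfra-Cre:LmnaF/F replicate 4 and 37.4 to 161.9 CPM elsewhere. Mural markers summed to 358.8 to 755.6 CPM, mesothelial markers to 5.18 to 35.7 CPM and Schwann cell markers to at most 7.71 CPM in the 8 libraries. The 14 dissociation response genes summed to 3332 ± 1161 CPM in WT and 7599 ± 1607 CPM in Pdgfra-Cre:LmnaF/F libraries (SD, n = 4 each). The part of these differences in the results that follow was not tested, except where values are given beside a result. In RNA of sorted populations, a lower share of a cell type and less RNA per cell cannot be told apart.

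The summed level of the mitochondrial ribosomal protein genes was nearly the same in both genotypes. Added up, the 77 genes reached 2093, 1944, 2133 and 2145 CPM in the WT libraries, in the order of their replicate numbers, against 2122, 2089, 1951 and 2127 CPM in those of the Pdgfra-Cre:LmnaF/F mice. The means were 2079 ± 92.7 and 2072 ± 82.9 CPM (SD, n = 4 each), a ratio of 0.997, and the ranges overlapped. The difference, Pdgfra-Cre:LmnaF/F minus WT, was -6.475 CPM and changed sign with the processing. It ran from -13.6 to 69.8 CPM over the alternatives and from -57.7 to 37.1 CPM when each library was left out. Over all 8 libraries the coefficient of variation was 3.93%, and the highest library exceeded the lowest 1.10-fold. In Pdgfra-Cre:LmnaF/F replicate 4, which had the highest myocyte marker level, the sum of 2127 CPM lay inside the range of the WT libraries.

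The sums were less steady for the 29 Mrps than for the 48 Mrpl symbols. The part of the smaller number of genes and lower summed level in this was not tested. The genes with an Mrpl symbol summed to 1394, 1346, 1434 and 1440 CPM in the WT libraries and to 1449, 1334, 1396 and 1424 CPM in the Pdgfra-Cre:LmnaF/F libraries, with a coefficient of variation of 3.08%. The genes with an Mrps symbol summed to 698.8, 597.8, 698.9 and 705.9 CPM in WT and to 672.9, 755.0, 554.5 and 702.9 CPM in Pdgfra-Cre:LmnaF/F cells, with a coefficient of variation of 9.68%. Each genotype had 1 library with a low Mrps sum, WT replicate 2 and Pdgfra-Cre:LmnaF/F replicate 3, and in the latter Mrps18a, which belongs to the large subunit, was itself at 0.115 CPM. The genotype means differed by less than the spread between replicates, at 675.3 ± 51.8 and 671.3 ± 84.9 CPM (SD, n = 4 each). The ratio of the Mrps sum to the Mrpl sum was 0.501, 0.444, 0.487 and 0.490 in WT and 0.464, 0.566, 0.397 and 0.493 in Pdgfra-Cre:LmnaF/F libraries. The lowest and the highest ratio of all 8 libraries were both in Pdgfra-Cre:LmnaF/F cells, in replicates 3 and 2.

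**Figure D1:**
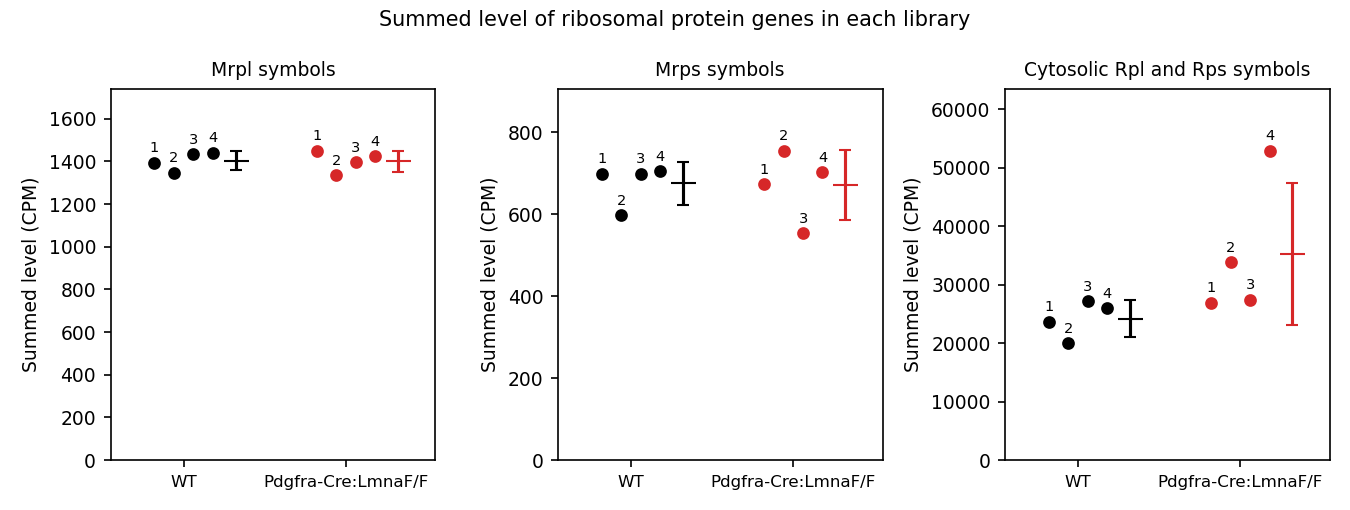
Summed CPM (vertical axes, starting at 0) of the genes with an Mrpl symbol, the genes with an Mrps symbol and the cytosolic ribosomal protein genes in the 4 WT (black) and 4 Pdgfra-Cre:LmnaF/F (red) libraries, numbered by replicate, with the mean and SD beside the points. The Mrpl and Mrps sums of both genotypes overlap, and so do the cytosolic sums, which run from 19950 to 27170 CPM in WT and from 26910 to 52850 CPM in Pdgfra-Cre:LmnaF/F cells.

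By evolutionary class, the proteins were sorted by their actual subunit. The 16 small-subunit proteins with a bacterial counterpart summed to 439.0 ± 34.5 CPM in WT and 426.6 ± 57.1 CPM in Pdgfra-Cre:LmnaF/F cells, and the 10 small-subunit proteins specific to mitochondria summed to 156.4 ± 20.6 and 177.0 ± 22.6 CPM (SD, n = 4 each). The 30 large-subunit proteins with a bacterial counterpart summed to 856.7 ± 40.3 and 866.5 ± 41.3 CPM, and the 20 specific to mitochondria to 598.3 ± 30.8 and 583.2 ± 21.2 CPM. Among the small-subunit proteins with a bacterial counterpart the lowest libraries were Pdgfra-Cre:LmnaF/F replicate 3 at 348.1 CPM and WT replicate 2 at 397.0 CPM, and among those specific to mitochondria they were WT replicate 2 at 125.8 CPM and Pdgfra-Cre:LmnaF/F replicate 3 at 155.2 CPM. In all 4 classes the genotypes overlapped, and the ratio of the means lay between 0.972 and 1.13.

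Cytosolic ribosomal proteins, which build the ribosomes of the cytosol, were taken by symbol and read in the same libraries. The list therefore also holds genes whose products are not core ribosomal proteins, such as Rps19bp1 and Rpl7l1. The 85 listed genes summed to 23660, 19950, 27170 and 26000 CPM in WT and to 26910, 33820, 27420 and 52850 CPM in Pdgfra-Cre:LmnaF/F cells. The cytosolic sum was 10.3 to 12.7 times the mitochondrial ribosomal protein sum in WT and 12.7 to 24.8 times in Pdgfra-Cre:LmnaF/F libraries. The highest ratio was in replicate 4, the library with the high myocyte marker level, and without that library the median log2 fold change of the cytosolic genes was 0.29 in place of 0.55. Of the 83 cytosolic genes tested, 0 passed the adjusted threshold with edgeR, while 11 did with DESeq2, 1 with limma-voom and 5 with edgeR and no filter. The same settings called 2.32%, 0.967% and 1.45% of all genes they tested, so the 1 gene with limma-voom lay near the background share. With edgeR, 41 of 83 were higher in Pdgfra-Cre:LmnaF/F cells at an unadjusted p under 0.05, against 6.24% of all tested genes, and 20 had WT libraries all below the Pdgfra-Cre:LmnaF/F libraries, against 4.06% of all tested genes. The genes of lowest p were Rps27a and Rps19, with log2 fold changes of 1.14 and 0.95 and adjusted p-values of 0.0987 and 0.112 by edgeR. The difference between the lists was not tested.

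No mitochondrial ribosomal protein gene rose or fell between the genotypes at the threshold. All 77 passed the filter on low counts, which 13036 genes passed in all, and 72 had at least 10 counts in every library. By the quasi-likelihood test of edgeR, with p-values adjusted over all 13036 genes and a threshold of 0.05, 0 of 77 were called, against 0.407% of all tested genes (53 genes), of which 0.169% were higher and 0.238% lower. At a background of 0.407%, fewer than 1 call among 77 genes would match the rest of the transcriptome, so the count of 0 by itself does not set these genes apart. The lowest adjusted p among the 77 genes was 0.336 with edgeR. DESeq2 and limma-voom also called 0 of 77, against 2.32% and 0.967% of all tested genes.

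At an unadjusted p under 0.05, 1 gene was higher and 1 was lower, or 2 of 77, against 11.9% of all tested genes, of which 6.24% were higher and 5.65% lower. The WT and Pdgfra-Cre:LmnaF/F values did not overlap in 3 of 77 genes (3.9%), with 2 higher and 1 lower in Pdgfra-Cre:LmnaF/F cells, against 8.03% of all tested genes, of which 4.06% were higher and 3.97% lower. Of the log2 fold changes, 43 were above and 34 below 0, a share of 55.8% above 0 against 51.8% of all tested genes. Their median was 0.07, their quartiles were -0.23 and 0.33, and they ran from -0.64 to 0.94, while the median of all tested genes was 0.02. In this fit no estimate reached 1 on the log2 scale, and 59 of 77 were closer to 0 than 0.5. Among the named genes, other settings gave estimates past 1 for Mrpl50, up to 1.26 without WT replicate 2, for Mrpl18, up to 1.73 with 1 RUVr factor, for Mrps18a, at -1.60 with limma-voom, and for Mrps21, at -1.10 without Pdgfra-Cre:LmnaF/F replicate 2, and none of these passed the adjusted threshold.

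The precision of these estimates was limited. The 95% interval of the log2 fold change had a median half-width of 0.76, and it stayed within 1 log2 unit of 0, that is within a 2-fold change either way, for 31 of 77 genes, beside 41.6% of all tested genes. For the other 46 genes a 2-fold change in at least 1 direction lay inside the interval. A change of that size was thus not excluded for them, and the absence of calls does not show that they were unchanged.

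**Figure D2:**
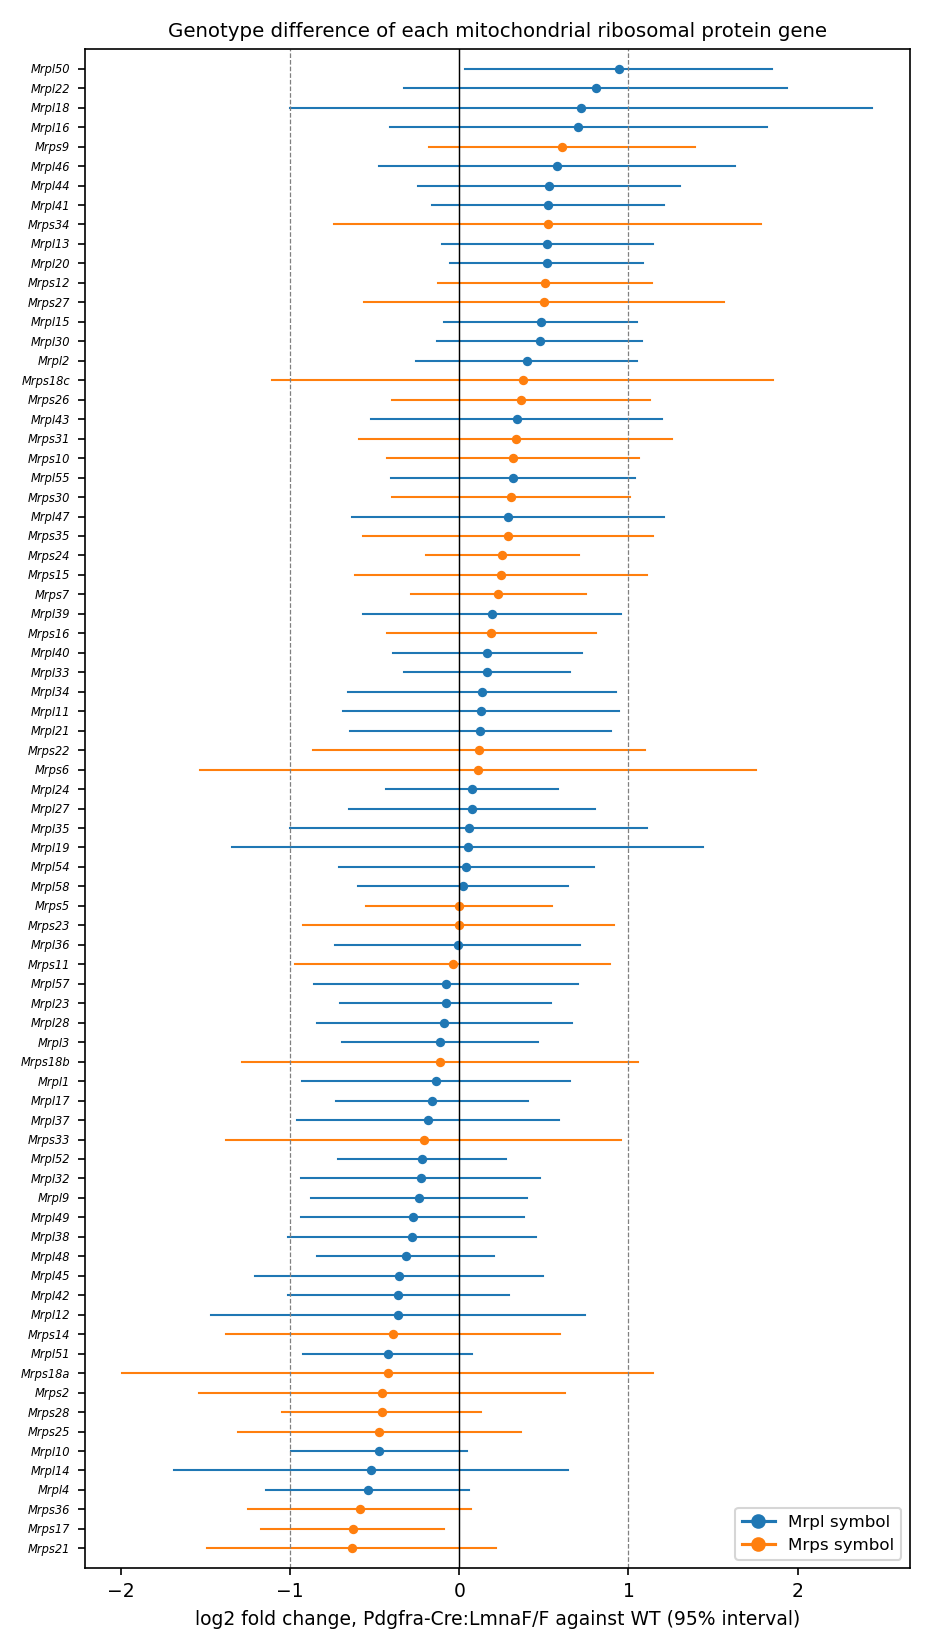
Log2 fold change of each of the 77 genes in Pdgfra-Cre:LmnaF/F against WT cells (points) with its 95% interval (lines), in order of size, in blue for Mrpl and in orange for Mrps symbols, with dashed lines at -1 and 1. All points lie between -0.64 and 0.94, and the intervals of Mrpl50 and Mrps17 alone leave out 0 before adjustment over all genes.

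The estimates of highest rank were as follows, and none passed the adjusted threshold. Mrpl50, a large-subunit protein specific to mitochondria, was at 25.5, 32.7, 5.75 and 14.7 CPM in WT and at 33.2, 32.3, 53.2 and 29.7 CPM in Pdgfra-Cre:LmnaF/F libraries. The groups overlapped, WT replicate 3 being far below the other libraries. Its log2 fold change was 0.94 ± 0.42 (SE), with an interval from 0.04 to 1.85 and an adjusted p of 0.401 by edgeR, and it was 0.63 without WT replicate 3.

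Mrps17, a small-subunit protein with a bacterial counterpart, was at 68.2, 53.3, 92.0 and 79.5 CPM in WT and at 55.3, 55.4, 29.9 and 49.4 CPM in Pdgfra-Cre:LmnaF/F libraries. The lowest WT library, replicate 2, lay below 2 of the Pdgfra-Cre:LmnaF/F libraries. The log2 fold change was -0.63 ± 0.25 (SE), with an interval from -1.17 to -0.09 and an adjusted p of 0.336 by edgeR. It was -0.46 without Pdgfra-Cre:LmnaF/F replicate 3.

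The next in rank with a positive difference were Mrpl20, Mrpl15 and Mrpl13, which have bacterial counterparts in the large subunit, and Mrps12, a protein of the decoding centre of the small subunit. Mrpl20 was at 35.2, 23.1, 20.4 and 24.3 CPM in WT and at 29.9, 42.1, 38.5 and 37.8 CPM in Pdgfra-Cre:LmnaF/F libraries. The WT library of replicate 1 was the one that overlapped. Mrps12 was at 25.04, 17.6, 20.9 and 26.3 CPM in WT and at 27.7, 48.5, 25.6 and 26.8 CPM in Pdgfra-Cre:LmnaF/F libraries, where replicate 2 stood above the rest. The log2 fold changes of Mrpl20, Mrpl15, Mrpl13 and Mrps12 lay between 0.48 and 0.52, with adjusted p-values from 0.478 to 0.552 by edgeR. That of Mrps12 was 0.24 without Pdgfra-Cre:LmnaF/F replicate 2, and limma-voom gave 0.30 for Mrps12 and 0.29 for Mrpl15. Without WT replicates 2 and 3 together, that of Mrps12 was 0.31 and that of Mrpl15 was 0.30.

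The next with a negative difference were Mrpl10 and Mrpl4, large-subunit proteins with bacterial counterparts, Mrps36, and Mrpl51, a large-subunit protein specific to mitochondria. Mrpl4 was at 84.3, 65.4, 122.9 and 107.9 CPM in WT and at 77.9, 40.9, 94.2 and 49.5 CPM in Pdgfra-Cre:LmnaF/F libraries. Mrpl10 was at 46.7, 72.5, 52.6 and 71.2 CPM in WT and at 58.2, 41.1, 37.2 and 37.7 CPM in Pdgfra-Cre:LmnaF/F libraries. The groups overlapped in both genes. The log2 fold changes were -0.48 for Mrpl10, -0.54 for Mrpl4, -0.59 for Mrps36 and -0.42 for Mrpl51, with adjusted p-values from 0.476 to 0.523 by edgeR.

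Mrpl51 was the gene with all Pdgfra-Cre:LmnaF/F libraries below all WT libraries, at 40.4, 51.3, 39.9 and 46.4 CPM in WT against 36.3, 28.9, 28.4 and 38.8 CPM. The gap was small, 38.8 CPM in the highest Pdgfra-Cre:LmnaF/F library against 39.9 CPM in the lowest WT library. The 2 genes with the opposite order were Mrpl44 and Mrpl16, the latter chosen after its values were seen. Mrpl16 was at 8.41, 7.55, 2.56 and 8.90 CPM in WT and at 12.7, 10.2, 12.4 and 9.33 CPM in Pdgfra-Cre:LmnaF/F cells, with a log2 fold change of 0.70 and an adjusted p of 0.665 by edgeR.

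Of the genes in which recessive mutations have been linked to human cardiomyopathy, Mrpl3, Mrpl44, Mrps22 and Mrps14 were listed and tested, and 0 of 4 were called. Mrpl44, whose product belongs to the part of the large subunit specific to mitochondria, was at 14.2, 10.6, 14.7 and 14.8 CPM in WT and at 15.4, 18.04, 14.9 and 30.7 CPM in Pdgfra-Cre:LmnaF/F libraries. The highest WT and the lowest Pdgfra-Cre:LmnaF/F library nearly touched, at 14.8 and 14.9 CPM, and the highest value of all was in the library with the high myocyte marker level. The log2 fold change was 0.53 (interval -0.24 to 1.31, adjusted p = 0.623, edgeR), and it was 0.24 without that library.

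Mrpl3 was at 32.4, 36.7, 39.6 and 32.5 CPM in WT and at 47.0, 22.5, 33.0 and 28.1 CPM in Pdgfra-Cre:LmnaF/F libraries. Its WT libraries lay close together and inside the range of the other group. Its interval of -0.69 to 0.47 kept a 2-fold change outside in both directions. Mrps22, a small-subunit protein specific to mitochondria, was at 5.23, 16.6, 16.6 and 8.80 CPM in WT and at 16.1, 10.8, 11.97 and 11.6 CPM in Pdgfra-Cre:LmnaF/F libraries. Mrps14 was at 11.8, 17.6, 11.2 and 13.4 CPM in WT and at 12.6, 3.96, 11.1 and 13.2 CPM in Pdgfra-Cre:LmnaF/F libraries, with a single low value in replicate 2. The intervals of Mrps22 and Mrps14, from -0.87 to 1.10 and from -1.38 to 0.60, were wider than that of Mrpl3.

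Mitochondrial ribosome subunits whose symbols do not start with Mrp were read beside these genes. They were Dap3, Ptcd3, Chchd1 and, in the large subunit, Gadd45gip1, together with Aurkaip1 in the small subunit. Their sum was 183.7 ± 24.9 CPM in WT and 181.9 ± 8.83 CPM in Pdgfra-Cre:LmnaF/F cells (SD, n = 4 each), and 0 of 5 were called. Chchd1, a small-subunit protein, was at 37.1, 36.2, 35.0 and 37.9 CPM in WT and at 29.9, 31.4, 20.9 and 21.7 CPM in Pdgfra-Cre:LmnaF/F libraries. All WT values lay above all others, with a log2 fold change of -0.49 ± 0.25 (SE) and an adjusted p of 0.477 by edgeR. The other 4 genes had log2 fold changes between -0.09 and 0.27, with overlapping groups.

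The level of expression differed widely between the genes, although one copy of nearly every protein is present in each ribosome. On the scale of CPM per kilobase of merged exons, the mean over the 8 libraries had a median of 8.56 over the 77 genes, beside 5.87 over all tested genes and 145 over the cytosolic ribosomal protein genes. The highest gene exceeded the lowest 37.9-fold, and the 90th percentile exceeded the 10th 8.08-fold. Genes with an Mrps symbol had a median of 6.999 and genes with an Mrpl symbol one of 10.4 CPM per kilobase.

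Mrpl52, a large-subunit protein specific to mitochondria, had the highest level per length in both genotypes, 69.0 ± 10.7 in WT and 59.2 ± 14.6 CPM per kilobase in Pdgfra-Cre:LmnaF/F cells (SD, n = 4 each). By the mean over all 8 libraries it was followed by Mrps28 at 49.9 ± 8.43 and 36.5 ± 11.6, Mrps21 at 51.6 ± 22.4 and 33.2 ± 19.7, Mrpl34 at 38.4 ± 6.54 and 42.1 ± 19.5, and Mrps24 at 33.4 ± 3.59 and 40.0 ± 5.19 CPM per kilobase. These are 3 small-subunit proteins, Mrps28, Mrps21 and Mrps24, and 1 further large-subunit protein, Mrpl34. The order of Mrps28, Mrps21, Mrpl34 and Mrps24 was not the same in both genotypes, with Mrps21 first in WT and Mrpl34 first in Pdgfra-Cre:LmnaF/F cells, and the ranges of mean ± SD of neighbours in the order overlapped. In WT alone, Mrpl4 at 36.3 and Mrpl10 at 35.6 CPM per kilobase also lay above Mrps24. At the lower end of the mean over all 8 libraries were Mrpl19 at 1.65 ± 1.16 and 1.73 ± 1.22, Mrps10 at 1.90 ± 0.52 and 2.37 ± 0.47, and Mrps35 at 1.96 ± 0.99 and 2.44 ± 0.64 CPM per kilobase, which likewise overlapped. In Pdgfra-Cre:LmnaF/F cells alone, Mrps25 at 1.89 CPM per kilobase lay below Mrps10 and Mrps35.

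Levels per length depended on the gene model used. With the length of the principal transcript in place of all merged exons, the median was 14.4 CPM per kilobase, and the ranks under both lengths had a Spearman correlation of 0.783 across the 77 genes, which are not independent replicates. Mrpl52 ranked highest and Mrpl19 lowest under both lengths. Mrpl33, a large-subunit protein with a bacterial counterpart, ranked 59 over 7326 bases of merged exons and 2 with its principal transcript. Mrps10 ranked 76 over 8079 bases, at 2.14 CPM per kilobase, and 32 with its principal transcript, at 16.95 CPM per kilobase, so that its low level rests on the merged exons.

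**Figure D3:**
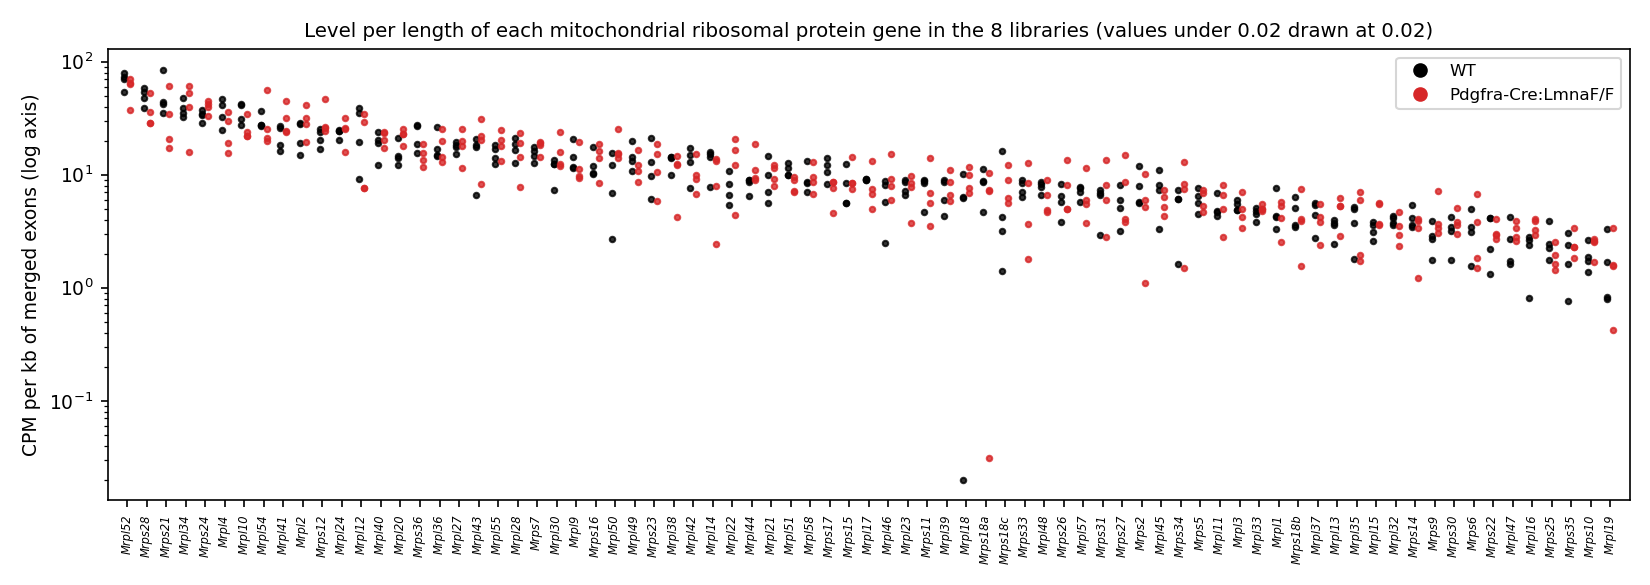
CPM per kilobase of merged exons (log axis) of the 77 genes in each of the 8 libraries, in order of their mean, with WT in black and Pdgfra-Cre:LmnaF/F in red. Levels fall from Mrpl52 to Mrpl19 over a 37.9-fold range of means, and isolated points near the bottom are Mrpl18 in WT replicate 3 and Mrps18a in Pdgfra-Cre:LmnaF/F replicate 3.

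Between libraries of one genotype, the genes varied about as much as other genes. The within-genotype SD of log2 CPM had a median of 0.48 over the 77 genes, beside 0.49 over all tested genes and 0.41 over the cytosolic ribosomal protein genes. It was above 1 for 7 genes. The steadiest was Mrpl33, with an SD of 0.14 and values of 28.0, 37.2, 32.8 and 34.9 CPM in WT and 36.6, 34.9, 36.4 and 40.4 CPM in Pdgfra-Cre:LmnaF/F libraries. Mrps24, which lines the mRNA channel of the small subunit, had an SD of 0.18, and Mrpl51 one of 0.20. The interval of the log2 fold change stayed within a 1.5-fold change either way for 1 gene, the small-subunit gene Mrps5, at -0.55 to 0.55, which was singled out after its values were seen.

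Pairs of the genes showed little common movement on average. After removal of the genotype means, the mean correlation between pairs of mitochondrial ribosomal protein genes over the 8 libraries was 0.01, beside 0.004 over all tested genes and 0.57 over the cytosolic ribosomal protein genes. These correlations share libraries and depth and are given as a description. The cytosolic genes had a higher median level, 145 against 8.56 CPM per kilobase. Their mean log2 deviation from the 8 libraries was 0.766 in Pdgfra-Cre:LmnaF/F replicate 4 and -0.478 to 0.238 in the others. The part of level and of that library in the 0.57 was not tested. The sums were thus steady, but a mean correlation near 0 does not exclude that some of the genes moved together.

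The library most apart from the others was Pdgfra-Cre:LmnaF/F replicate 3. In a principal component analysis of the 77 genes, replicate 3 of the Pdgfra-Cre:LmnaF/F group was at 8.38 on the first component, which held 36.0% of the variance, while the other libraries lay between -2.75 and 0.44. WT replicate 3 was at -7.06 on the second component (24.9%), with the other libraries between 0.13 and 1.99. In that library Mrpl18 alone was 4.94 below the mean of the 8 libraries on the log2 scale, as Mrps18a was 5.62 below it in Pdgfra-Cre:LmnaF/F replicate 3. Without Mrpl18, Mrps18a and Mrps18c, the genes with a single library near 0, Pdgfra-Cre:LmnaF/F replicate 3 was at 5.75 and the other libraries between -3.42 and 1.66 on the first component, while on the second WT replicate 3 was at -3.48 and Pdgfra-Cre:LmnaF/F replicate 4 at 3.38. Pdgfra-Cre:LmnaF/F replicate 3 had the lowest value of the 8 libraries in 23 of 77 genes (29.9%), beside 15% of all tested genes, and WT replicate 3 in 10 (13%), beside 20.6%. Pdgfra-Cre:LmnaF/F replicate 4 had the highest value in 19 genes (24.7%), beside 17.3% of all tested genes.

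**Figure D4:**
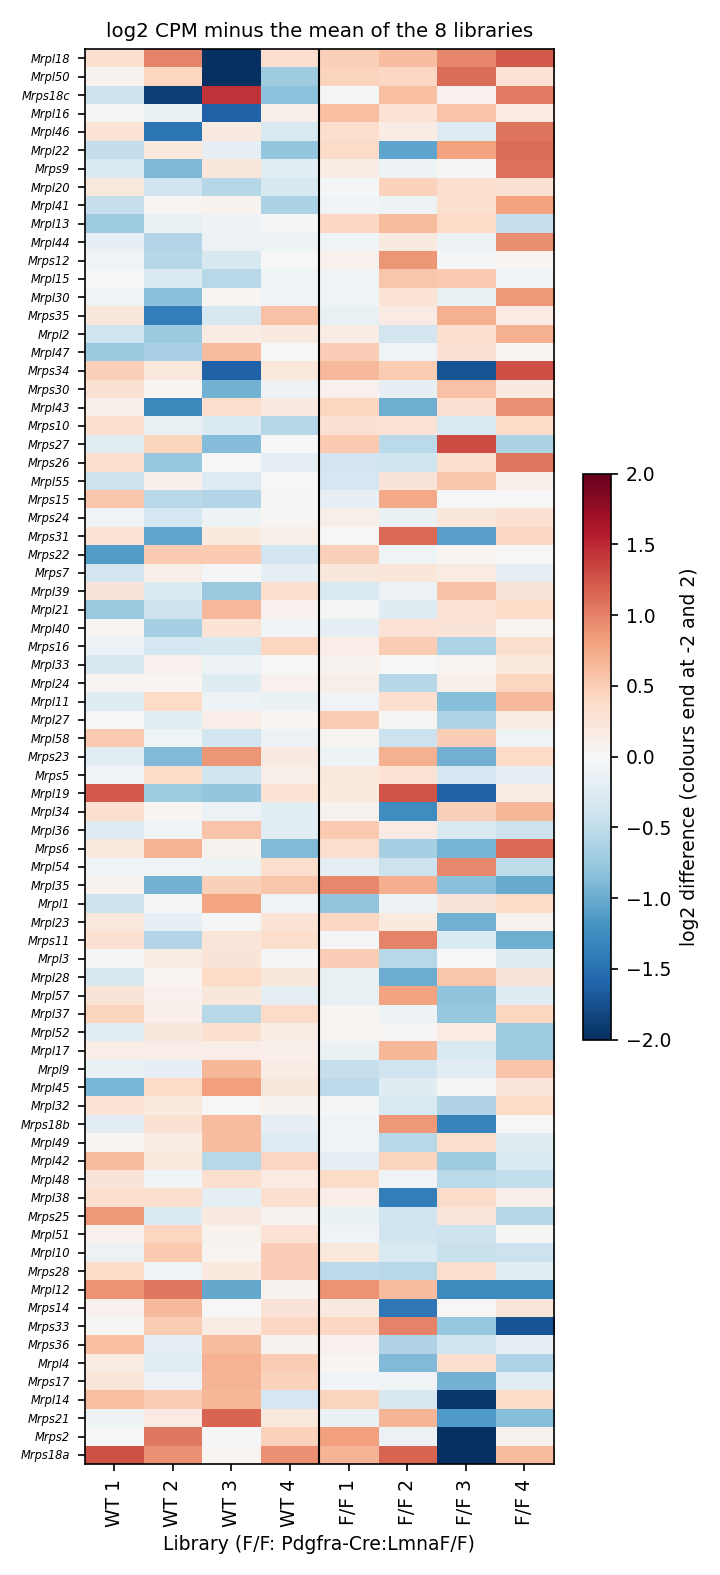
Difference of log2 CPM from the mean of the 8 libraries for the 77 genes (rows, in order of the genotype difference) in each library (columns; F/F marks Pdgfra-Cre:LmnaF/F), with red for higher and blue for lower. The darkest cells are single genes in single libraries, such as Mrpl18 in WT replicate 3 and Mrps18a in Pdgfra-Cre:LmnaF/F replicate 3.

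The largest spreads came from single libraries. Mrps18a, a large-subunit protein despite its symbol, was at 41.2, 32.2, 17.4 and 32.1 CPM in WT and at 27.1, 38.1, 0.115 and 26.3 CPM in Pdgfra-Cre:LmnaF/F libraries, the low value being 1 count. Its log2 fold change was -0.42 with all libraries, -0.01 without Pdgfra-Cre:LmnaF/F replicate 3 and -1.60 with limma-voom. Mrpl18, a large-subunit protein with a bacterial counterpart, was at 8.69, 14.1, 0 and 8.80 CPM in WT and at 9.72, 10.7, 13.9 and 16.5 CPM in Pdgfra-Cre:LmnaF/F libraries. The 0 counts in WT replicate 3 allow up to 3 counts, of 6345584 in that library, for counting error only, and the log2 fold change was 0.72 with and 0.29 without that library, and 1.73 with 1 RUVr factor.

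Mrps34, a small-subunit protein specific to mitochondria, had an SD of 1.15 and was low in replicate 3 of both genotypes. It was at 15.1, 12.6, 3.35 and 12.5 CPM in WT and at 17.1, 15.5, 3.11 and 26.8 CPM in Pdgfra-Cre:LmnaF/F libraries. Its exons overlap those of Nme3 on the same strand and of Mapk8ip3 on the other. A single library with at most 3 counts beside at least 20 in each of the other 7 was found for 3 of 76 mitochondrial ribosomal protein genes (3.95%) and for 169 of 10174 listed genes (1.66%), a pattern looked for after the values of Mrps18a were seen. The third such gene was Mrps18c, with 3 counts in WT replicate 2, the library of lowest depth. Of the 169 genes, 85 had the low value in WT replicate 2, 42 in WT replicate 3, 21 in Pdgfra-Cre:LmnaF/F replicate 3 and 19 in Pdgfra-Cre:LmnaF/F replicate 2.

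The other genes of mitochondrial translation were read in the same fit, and no list contained a called gene. Of 26 tested genes for assembly of the ribosome and modification of its RNA, 2 were higher and 1 was lower at an unadjusted p under 0.05, beside 11.9% of all tested genes, which is the background for the other lists as well. The median log2 fold change was 0.09, and it was -0.08 with limma-voom and between 0.02 and 0.17 when each library was left out. Mrm3, a methyltransferase of the large ribosomal RNA, was at 5.89, 2.01, 4.31 and 12.1 CPM in WT and at 10.7, 20.4, 26.8 and 13.9 CPM in Pdgfra-Cre:LmnaF/F libraries. Malsu1, which keeps the large subunit from joining early, was at 9.16, 7.04, 8.63 and 16.2 CPM in WT and at 23.8, 11.1, 25.8 and 26.5 CPM in Pdgfra-Cre:LmnaF/F libraries. In each gene a single WT library, replicate 4, overlapped with the other group, and the log2 fold changes were 1.51 ± 0.53 and 1.07 ± 0.41 (SE), with adjusted p-values of 0.262 and 0.311 by edgeR.

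Of 14 tested translation factors and mRNA-binding proteins, 1 was higher and 1 was lower at an unadjusted p under 0.05, and the median log2 fold change was 0.02. Mtrf1l, a release factor, was at 13.4, 8.55, 11.02 and 11.6 CPM in WT and at 15, 15.9, 27.1 and 21.3 CPM in Pdgfra-Cre:LmnaF/F libraries, without overlap. Tufm, the elongation factor that delivers charged tRNAs, was at 37.1, 38.2, 19.7 and 20.1 CPM in WT and at 16.9, 13.3, 20.03 and 18.7 CPM in Pdgfra-Cre:LmnaF/F libraries. Its WT libraries fell into a high and a low pair. WT replicate 3 was the one that overlapped with the other group, and WT replicate 4 lay just above its highest library. The adjusted p was 0.398 for Mtrf1l and 0.400 for Tufm by edgeR.

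Of 17 mitochondrial aminoacyl-tRNA synthetases, 0 were higher and 1 was lower at an unadjusted p under 0.05. The median log2 fold change was 0.22, and 0.11 without Pdgfra-Cre:LmnaF/F replicate 2. The 1 gene was Lars2, the leucyl-tRNA synthetase, which was at 7494, 11140, 16940 and 4676 CPM in WT and at 1587, 3020, 5386 and 2736 CPM in Pdgfra-Cre:LmnaF/F libraries. The groups overlapped, and Lars2 made up 82.3% to 97.9% of the summed level of the 17 genes. In every library it lay far above each of the other synthetase genes. Whether all reads counted for Lars2 came from its mRNA was not tested. The values and the difference may therefore not measure the mRNA of the synthetase alone. The log2 fold change of Lars2 was -1.66 ± 0.40 (SE), with an adjusted p of 0.101 by edgeR. With no filter on low counts Lars2 was called, with an adjusted p of 0.00166 by edgeR, and without WT replicates 2 and 3 together its log2 fold change was -0.95. The next in rank, Fars2, the phenylalanyl-tRNA synthetase, had the opposite sign, at 19.8, 19.6, 37.1 and 30.7 CPM in WT and at 27.6, 29.4, 47.1 and 67.3 CPM in Pdgfra-Cre:LmnaF/F libraries. The groups overlapped, with a log2 fold change of 0.67 ± 0.33 (SE) and an adjusted p of 0.456 by edgeR.

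Of 10 genes for transcription and maintenance of mitochondrial DNA, 1 was higher and 1 was lower at an unadjusted p under 0.05. Polrmt, the RNA polymerase of mitochondria, was at 33.8, 27.7, 26.7 and 23.7 CPM in WT and at 16.2, 10.3, 14.9 and 15.6 CPM in Pdgfra-Cre:LmnaF/F libraries. Every WT library lay above every other library, with a log2 fold change of -0.97 ± 0.30 (SE) and an adjusted p of 0.202 by edgeR. Polg2, the accessory subunit of the DNA polymerase, was at 15.04, 5.53, 7.35 and 7.87 CPM in WT and at 12.3, 11.7, 26.4 and 30.1 CPM in Pdgfra-Cre:LmnaF/F libraries, with an adjusted p of 0.339. The mRNAs of mitochondrial DNA, which are the templates of this ribosome, were not analysed here.

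Of 9 nuclear regulators of mitochondrial genes, 8 had a log2 fold change above 0, against 51.8% of all tested genes, and 1 passed an unadjusted p under 0.05, against 11.9% of all tested genes. The median log2 fold change was 0.31, and 0.10 when genes under 10 counts in any library were left out. Nrf1, a transcription factor of many nuclear genes for mitochondrial proteins, was at 74.5, 55.4, 49.9 and 87.3 CPM in WT and at 93.9, 83.2, 119.2 and 84.2 CPM in Pdgfra-Cre:LmnaF/F libraries. Gabpa, an ETS-family factor with targets in the same group, was at 60.6, 63.9, 56.1 and 73.4 CPM in WT and at 73.1, 81.1, 90.5 and 71.0 CPM. Both genes overlapped between the genotypes, with adjusted p-values of 0.401 and 0.584 by edgeR. Of 16 genes for other proteins of the mitochondrial membranes and matrix, 0 passed an unadjusted p under 0.05. Their sum was 1259 ± 153 CPM in WT and 1365 ± 56.9 CPM in Pdgfra-Cre:LmnaF/F cells (SD, n = 4 each). These are mRNA levels, and the amount of mitochondria was not measured. Hspa9 and Vdac2, the matrix chaperone and an outer membrane channel, had the lowest p-values, with log2 fold changes of 0.39 and 0.28.

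**Figure D5:**
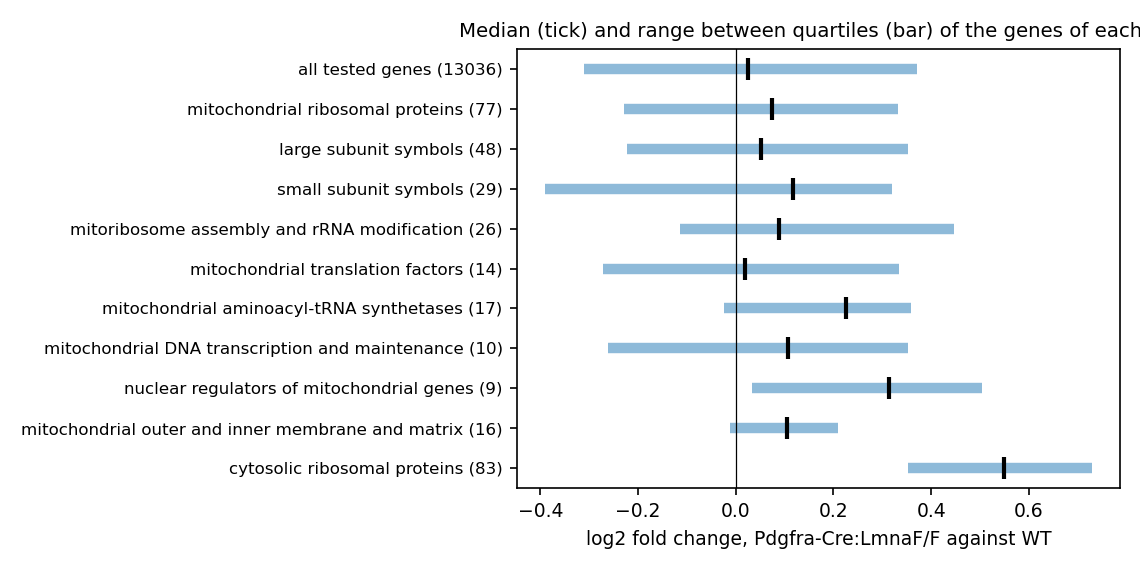
Median (tick) and range between the quartiles (bar) of the log2 fold changes in Pdgfra-Cre:LmnaF/F against WT cells for the genes of each list, with the number of tested genes in parentheses. The median of the mitochondrial ribosomal protein genes, 0.07, lies near that of all tested genes, 0.02, while that of the cytosolic ribosomal protein genes is 0.55.

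Many nuclear genes for mitochondrial proteins are known to be controlled by NRF1, ETS factors and YY1, and the promoters were examined for their motifs. RefSeq windows of build GRCm38.p6, from 250 bases before to 50 bases after the start of the gene, were found for 68 of 77 genes. The motif of ETS factors such as GABPA (CCGGAAG) was present in 25 of these 68 genes (36.8%), that of NRF1 (GCGC, then NN, then GCGC) in 14 (20.6%) and that of YY1 (AAGATGGC) in 12 (17.6%), on either strand and with no overlap between matches of different motifs. At least 1 of the 3 was present in 43 genes (63.2%). Of all promoters in the table, 9.93%, 7% and 3.19% of genes held the 3 motifs and 17.9% held any, and of the 14590 genes listed in the count files with a window the shares were 14.7%, 11.2%, 3.98% and 26.2%. A match is a run of letters and not a measured site.

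Most matches lay close to the gene start. Of 29 ETS matches, 21 (72.4%) began no more than 50 bases before the start or after it, as did 9 of 12 YY1 matches (75%), beside 56.7% and 58.9% of the matches in all listed genes. For NRF1 it was 10 of 17 matches (58.8%), beside 50% in all listed genes. Of the YY1 matches, 8 of 12 (66.7%) began after the start, beside 49.2% in all listed genes. The 6 stretches printed here run from 80 bases before to 50 bases after the start, with motif matches in capitals on the strand of the gene, so that an ETS match on the other strand reads CTTCCGG. Mrpl52 and Mrps24 are shown for their high level per length, Mrps12 and Mrpl44 as named genes with an ETS or an NRF1 match, and Mrps17 and Mrpl50 as the genes of lowest p, whose windows held none of the motifs.
Mrpl52, chr14:54426829-54426958, plus strand: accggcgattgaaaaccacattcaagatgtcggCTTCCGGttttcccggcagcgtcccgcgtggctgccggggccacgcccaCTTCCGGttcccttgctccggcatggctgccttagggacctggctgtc
Mrps24, chr11:5707652-5707781, minus strand: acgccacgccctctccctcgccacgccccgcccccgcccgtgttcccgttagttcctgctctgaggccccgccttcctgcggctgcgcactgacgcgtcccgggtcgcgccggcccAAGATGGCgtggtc
Mrps12, chr7:28741772-28741901, minus strand: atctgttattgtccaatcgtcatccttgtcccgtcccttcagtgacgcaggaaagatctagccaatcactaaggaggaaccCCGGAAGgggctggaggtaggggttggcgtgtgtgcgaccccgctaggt
Mrpl44, chr1:79775938-79776067, plus strand: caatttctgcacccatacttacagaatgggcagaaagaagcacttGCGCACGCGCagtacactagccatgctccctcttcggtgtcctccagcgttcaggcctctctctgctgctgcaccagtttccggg
Mrps17, chr5:129715417-129715546, plus strand: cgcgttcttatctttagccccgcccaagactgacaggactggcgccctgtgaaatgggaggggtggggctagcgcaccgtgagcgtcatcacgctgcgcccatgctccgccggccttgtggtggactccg
Mrpl50, chr4:49521034-49521163, minus strand: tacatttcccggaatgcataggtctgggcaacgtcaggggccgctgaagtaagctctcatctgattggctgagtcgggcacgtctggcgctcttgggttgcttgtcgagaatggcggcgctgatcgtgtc

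Mrpl52 thus held 2 ETS matches and Mrps24 a YY1 match inside the transcribed part. Grouped by motif, the genes had medians close to 0. The median log2 fold change was 0.07 in 25 genes with an ETS match, -0.12 in 14 genes with an NRF1 match, -0.02 in 12 genes with a YY1 match and 0.16 in 25 genes with a window and no match, and the summed levels overlapped between genotypes in each group.

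Many of the genes share their start region with another gene. A protein-coding neighbour on the other strand whose start lay within 1000 bases was annotated for 33 of 77 genes (42.9%), beside 15.4% of all tested genes. Any non-coding gene among the tested genes was taken as having no such neighbour, which can lower the second share. Examples are Mrps12 with Sars2, the mitochondrial seryl-tRNA synthetase, at 172 bases, Mrpl50 with Zfp189 at 83 bases and Mrpl51 with Ncapd2 at 100 bases. Exons of 32 genes overlapped those of another annotated gene, on the same strand in 7 and on the opposite strand in 27. Since the sources used here do not state the strand setting of the counting, reads in such overlaps may not be assigned to 1 gene with certainty. The median log2 fold change was 0.09 in these 32 genes and 0.04 in the other 45.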

How the data were processed

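RNA of sorted cardiac fibroblasts of WT and Pdgfra-Cre:LmnaF/F mice was analysed as 8 libraries, 4 for each genotype. The study's methods do not state how many mice each library came from. The genotype and replicate number came from the labels, and the p-values measure the spread between these samples. The authors sequenced rRNA-depleted, stranded libraries from RNA with a RIN above 8, in pairs of 150 bp reads, aligned them to mm10 with HISAT2, and counted them on GENCODE genes with featureCounts. For each gene symbol, the authors deposited a whole-number count, not scaled for library size and without the RUV step named in the study's methods.

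The analysis used edgeR 4.0.16 (R 4.3.3) with TMM factors, filterByExpr (minimum count 10), the quasi-likelihood test without covariates and Benjamini-Hochberg adjusted p-values over 13036 genes. The SE was taken as the size of the log2 fold change over the square root of F. Lengths and overlaps came from GENCODE M21 (GRCm38) and promoters from RefSeq. A library at 3 counts or fewer was taken as at the floor. Depths and floors cover counting error only.

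The members and lists were chosen with earlier results of these data known. Genes named in the text are those past the threshold, the 5 lowest p in each direction, the 5 highest and 3 lowest levels per length, the 3 largest and 3 smallest within-genotype SDs, the genes linked to cardiomyopathy, the subunits with other symbols, and the 2 lowest p of each pathway list and of the cytosolic ribosomal proteins. Alternatives were RLE and upper-quartile factors, no filter, at least 10 counts in every library, DESeq2 1.42.0, limma-voom with quality weights (limma 3.58.1), 1 RUVr factor computed from residuals, a block for the replicate number and the omission of each library in turn. The principal transcript length, leaving out WT replicates 2 and 3 together, and a principal component analysis without the genes near 0 in a single library were added after the data were seen. The fits were tested on simulated counts. Mrpl53 was not analysed here.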

Additional observations from a re-analysis of the deposited data

Results flagged for a closer look

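Of 70 groups of 4 libraries examined for a value far from the other 3, 5 were picked out by the gap between the extreme library and its nearest neighbour relative to the range of the group, and chance alone picks out about 1 group in 20. In the Pdgfra-Cre:LmnaF/F group, Mrpl50 was at 53.2 CPM in replicate 3, with the other libraries between 29.7 and 33.2 CPM. Mrps12 was at 48.5 CPM in Pdgfra-Cre:LmnaF/F replicate 2, with the others between 25.6 and 27.7 CPM. Mrps10 was at 13.6 CPM in Pdgfra-Cre:LmnaF/F replicate 3, with the others between 20.5 and 21.8 CPM.

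In the WT group, Mrpl44 was at 10.6 CPM in replicate 2, with the others between 14.2 and 14.8 CPM. The summed level of the genes with an Mrps symbol was 597.8 CPM in WT replicate 2, with the others between 698.8 and 705.9 CPM. WT replicate 2 was the library of lowest depth, with 3863 counts over all 77 genes, and the part of its depth in these values was not tested.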

How the results depend on the processing

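No alternative called a mitochondrial ribosomal protein gene in either direction, and the median log2 fold change of the set ran from -0.01 to 0.12 over all alternatives. The count of differentially expressed genes over the whole table was less steady. It was 53 with the reported settings, 274 with no filter, 303 with DESeq2, 126 with limma-voom, 81 with 1 RUVr factor, 36 with the replicate block, 18 without WT replicates 2 and 3 together, and 13 to 76 when each library was left out, lowest without WT replicate 4. The share of these genes that were higher was 41.5% with the reported settings, 54.3% with 1 RUVr factor, and 7.69% (without WT replicate 4) to 52.6% when each library was left out. Members at an unadjusted p under 0.05 numbered 2 higher and 3 lower with limma-voom, 2 lower with no filter, 2 higher with 1 RUVr factor, and 0 to 2 higher and 0 to 3 lower when each library was left out. Of all genes tested, 14.4%, 11%, 14% and 8.88% to 13.1% had an unadjusted p under 0.05 in either direction under the same settings, in that order. Cytosolic ribosomal protein genes called numbered 5 with no filter, 11 with DESeq2 and 1 with limma-voom, and 1 synthetase gene, Lars2, was called with no filter and with the replicate block, with adjusted p-values of 0.00166 and 0.0369 by edgeR against 0.101 with the reported settings. Median log2 fold changes moved to 0.10 for the nuclear regulators with at least 10 counts in every library, to -0.20 for mitochondrial DNA transcription with limma-voom, and for the translation factors to 0.19 without WT replicates 2 and 3 together and to between -0.12 and 0.14 when each library was left out.

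Estimates near 0 changed sign. With limma-voom the log2 fold change was -0.062 for Mrps35, -0.37 for Mrpl19 and 0.016 for Mrpl3. Without WT replicates 2 and 3 together it was -0.17 for Mrps35, -0.53 for Mrpl19 and -0.066 for Aurkaip1. When each library was left out it ran from -0.49 to 0.63 for Mrpl19, -0.14 to 0.35 for Mrps22, -0.079 to 0.11 for Dap3, -0.29 to 0.18 for Gadd45gip1, -0.34 to 0.028 for Mrpl3, -0.091 to 0.40 for Mrpl34 and -0.069 to 0.16 for Aurkaip1. The cause was not tested. With the length of the principal transcript the median level was 14.4 CPM per kilobase.

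Deviations of libraries with the same replicate number correlated between -0.03 and 0.04, and so did those of libraries with different numbers. No shared signal was thus seen, but these values cannot show whether libraries with the same number were paired. The replicate block gave 2 members lower at an unadjusted p under 0.05, and a log2 fold change of -0.092 for Mrpl19. WT replicate 2, with a median of 41 counts per gene, limits what these libraries can show.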
